A study of Mus musculus with 4 samples.

Results

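Collagens are the chains that make up the fibers, sheets and filaments of the extracellular matrix. Each collagen molecule is a triple helix of 3 chains, which are hydroxylated and folded in the endoplasmic reticulum, secreted, trimmed and cross-linked outside the cell. Fibroblasts and other stromal cells are the usual producers: fibrillar types I, III and V form the cables of connective tissue and of the reticular framework of the spleen, type IV forms the sheets of basement membranes, and type VI forms beaded microfibrils. DC are not known as a main source of these proteins. MARCO itself, the receptor deleted here, is a scavenger receptor with a collagen-like stretch but is not a member of the family.

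The family was followed over every probe set annotated with exactly 1 symbol of the form Col, a number, a and a number. This gave 68 of 45037 probe sets, which stood for 42 of 17097 genes. Of the genes, 11 were fibrillar, 6 of basement membranes, 5 of microfibrils and 20 of other types. Neither Col6a6 nor Col28a1 had a probe set of its own symbol alone. A gene was read from its brightest probe set by mean log2 intensity, and 21 genes had more than 1.

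RNA came from CD11c-selected spleen DC of adult WT mice and of mice lacking MARCO (MARCO-/-), both labelled as C56BL/6, a background that the methods write as C57BL/6 with bought WT mice as controls. Cells of several mice were pooled and cultured overnight in PBS, as the resting condition, or with LPS, the bacterial ligand of TLR4. The deposited table has 1 array for each genotype and treatment, named WT PBS, MARCO-/- PBS, WT LPS and MARCO-/- LPS here. There are therefore no replicates, no error can be attached to a single value, and nothing below was tested. The 2-fold threshold of the methods was used to call a change. The values are RMA intensities, that is probe brightness after background correction and normalization between arrays, on a linear scale. Their median over all probe sets was 4.87, which was taken as the background level. In bulk RNA of this kind, more collagen-producing cells and more collagen RNA per cell cannot be told apart.

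Genes of the labelled cell type were present. The MHC class II gene H2-Aa, a defining gene of antigen-presenting cells, had intensities of 4999.8 in WT PBS, 3013 in WT LPS, 5231 in MARCO-/- PBS and 2035 in MARCO-/- LPS. All 7 DC markers were above the background level on every array. Itgax, the gene of CD11c, had 548, 12.9, 621 and 16.4 on the same arrays. With LPS, H2-Ab1, Cd74, Itgax and Ciita were at least 2-fold lower in both genotypes. H2-Aa was so in MARCO-/- alone, where Zbtb46 was at least 2-fold higher. Marco had 8.05 in WT PBS and 3.95 in MARCO-/- PBS, and 3.15 and 4.25 with LPS, so that it was above the background level in WT PBS alone. Whether this probe set covers the deleted part could not be read from the sources used here.

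Promoter sequences are shown for the gene with the largest ratios, Col3a1, and for the type IV pair Col4a1 and Col4a2, which lie head to head and had ratios of the same direction in each of the 4 comparisons. RefSeq windows run from 250 bases before to 50 bases after a start site on the build GRCm38.p6. Capitals mark 3 promoter motifs, each searched on both strands. The TATA box was searched as the letters TATAAA. The GC box was searched as the letters GGGCGG. For the CCAAT box the 5 letters of its name were used. The first sequence is the Col3a1 window at chr1:45311288-45311587, plus strand. The second is the stretch of 78 bases that the Col4a1 window on the minus strand and the Col4a2 window on the plus strand have in common, at chr8:11312777-11312854, written on the plus strand.
Col3a1: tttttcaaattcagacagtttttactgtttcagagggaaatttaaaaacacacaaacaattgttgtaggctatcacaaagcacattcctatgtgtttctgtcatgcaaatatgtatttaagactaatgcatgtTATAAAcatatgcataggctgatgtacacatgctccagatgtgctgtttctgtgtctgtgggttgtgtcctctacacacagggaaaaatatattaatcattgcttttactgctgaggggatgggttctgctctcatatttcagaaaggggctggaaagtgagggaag
Col4a1 and Col4a2: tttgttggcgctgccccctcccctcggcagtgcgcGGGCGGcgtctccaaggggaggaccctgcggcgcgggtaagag

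The Col3a1 window held 1 TATA box, no GC box and no CCAAT box, with 37.7% G and C. By contrast, the shared Col4 stretch held 1 GC box and no TATA box, with 73.1% G and C. Over their full windows, Col4a1 had 1 GC box and 1 CCAAT box, and Col4a2 had 3 GC boxes and 1 CCAAT box. Of the 42 genes, 33 had a window. Among these 33 genes, with 36 windows, 5 held a TATA box in any window, 13 a CCAAT box and 21 a GC box. Over all 32851 windows the shares, counted by window and not by gene, were 13.6%, 37.4% and 35.7%. The distance of a motif from the start site was not considered. These letters are a description of the windows and say nothing of which factor was bound.

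Many members stayed under the background level. Since this level is the median of all intensities, as many values of all probe sets lie under it as above it. The share of all genes under it on every array was not counted, so the counts here are a description only. For 22 of the 42 genes no probe set rose above the background level on any array, and their 32 probe sets had intensities between 1.93 and 4.75. These were the fibrillar genes Col1a2, Col2a1, Col5a3, Col11a1, Col11a2 and Col24a1, the basement membrane genes Col4a3, Col4a4, Col4a5 and Col4a6, the microfibril genes Col6a4 and Col6a5, and Col8a2, Col9a1, Col9a2, Col10a1, Col12a1, Col17a1, Col19a1, Col20a1, Col22a1 and Col26a1. Several are collagens of cartilage, cornea, kidney or skin. Their largest log2 ratio in size was 0.70. The remaining 20 genes reached the background level on at least 1 array. By the representing probe sets 10 genes were above it in WT PBS, 20 in WT LPS, 18 in MARCO-/- PBS and 10 in MARCO-/- LPS.

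**Figure D1:**
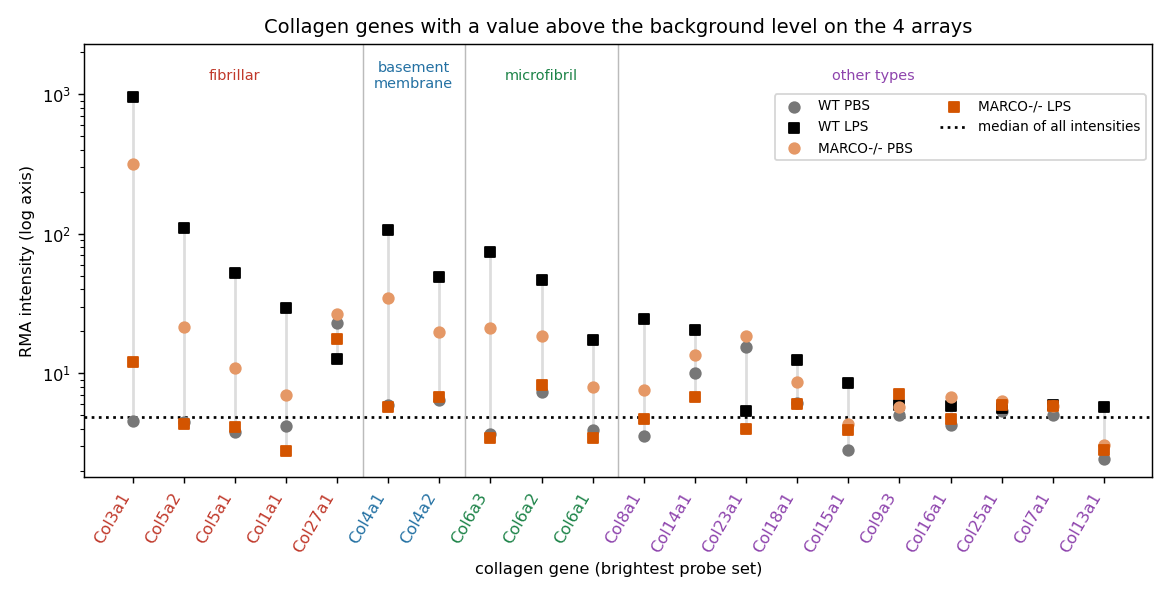
RMA intensity (vertical log axis) of the 20 collagen genes with a value above the background level, grouped by type. Each point is 1 array and the dotted line is the median of all intensities, 4.87. For 15 of the 20 genes the highest point is the WT LPS array, and Col3a1 spans 4.57 to 959. All 20 were above the dotted line on WT LPS, so keeping genes by that line can favor this array. Without this filter, 26 of the 42 collagens were highest on WT LPS, ties included, against 33.0% of all genes.

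Among fibrillar collagens, Col3a1, whose type III fibers form the reticular mesh of lymphoid organs, had intensities of 4.57 in WT PBS, 959 in WT LPS, 315 in MARCO-/- PBS and 12.1 in MARCO-/- LPS. Its values were thus high on 1 array of each genotype and each treatment. A second Col3a1 probe set followed the same order at a lower brightness, with 2.2, 16.4, 5.15 and 2.79. Type V collagen sits in the core of type I and III fibrils and sets their width. Its chain gene Col5a2 had 4.48 in WT PBS, 111 in WT LPS, 21.5 in MARCO-/- PBS and 4.34 in MARCO-/- LPS, and its other chain gene Col5a1 had 3.80, 52.1, 10.8 and 4.10. Col5a2 is the next protein-coding gene to Col3a1 on the chromosome. Col5a1 and Col5a2 were above the background level on the WT LPS and MARCO-/- PBS arrays alone. Col1a1, the main chain of type I collagen, had 4.15 in WT PBS, 29.5 in WT LPS, 7.01 in MARCO-/- PBS and 2.75 in MARCO-/- LPS. Its partner chain Col1a2 was represented by a single probe set, which stayed between 2.88 and 3.03. That probe set comes from an expressed sequence tag (BB150460), and its place on the Col1a2 transcript could not be read from the sources used here. Col27a1, a fibrillar collagen first known from cartilage, went its own way with 22.9 in WT PBS, 12.7 in WT LPS, 26.5 in MARCO-/- PBS and 17.6 in MARCO-/- LPS. It was above the background level on all arrays, higher with PBS than with LPS in both genotypes, and under 2-fold in each comparison.

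Basement membranes are built on a net of type IV collagen, whose common form joins the chains of Col4a1 and Col4a2. Col4a1 had intensities of 5.89 in WT PBS, 107 in WT LPS, 34.6 in MARCO-/- PBS and 5.77 in MARCO-/- LPS. Col4a2 had 6.48, 49.4, 19.8 and 6.71 on the same arrays. The pair thus followed a single order at the top, with WT LPS highest and MARCO-/- PBS next. The other head-to-head pairs of the family, Col4a3 with Col4a4 and Col4a5 with Col4a6, encode the chains of specialized membranes such as the glomerular one, and all 4 genes stayed at background.

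Type VI collagen, which links cells to the surrounding fibers, is assembled from 3 chains. Col6a3 had intensities of 3.67 in WT PBS, 74.7 in WT LPS, 21.2 in MARCO-/- PBS and 3.45 in MARCO-/- LPS. For Col6a2 the values were 7.31, 46.3, 18.5 and 8.24, and for its neighbor on the chromosome, Col6a1, they were 3.90, 17.2, 7.95 and 3.41. All 3 chains were highest in WT LPS and second in MARCO-/- PBS. Col6a4 and Col6a5, further members of this type, stayed between 2.07 and 2.74.

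Of the other types, Col8a1, a short-chain collagen of vessel walls, had intensities of 3.53 in WT PBS, 24.7 in WT LPS, 7.64 in MARCO-/- PBS and 4.72 in MARCO-/- LPS. A further probe set of similar brightness gave 3.90, 25.6, 8.56 and 3.42, and the third stayed between 2.87 and 3.53. For LPS over PBS in MARCO-/-, the further probe set had a log2 ratio of -1.33, against -0.70 for the representing one. Col14a1, which coats fibrils, had 10.1, 20.5, 13.5 and 6.73 on the arrays in the same order. Col18a1, a basement membrane proteoglycan that is the source of endostatin, had 6.09, 12.5, 8.71 and 6.01, and the related Col15a1 had 2.81, 8.49, 4.36 and 3.90. The transmembrane collagen Col13a1 was above background in WT LPS alone, with 2.44, 5.71, 3.06 and 2.80. Each of these 5 genes was highest in WT LPS. Col23a1, another transmembrane collagen, had 15.5 in WT PBS, 5.32 in WT LPS, 18.5 in MARCO-/- PBS and 4.0 in MARCO-/- LPS, so that its values parted by treatment and not by genotype. Col16a1 (4.28, 5.87, 6.74 and 4.72), Col9a3 (5.06, 5.92, 5.77 and 7.09), Col7a1 of anchoring fibrils (5.06, 5.93, 5.85 and 5.84) and the neuronal Col25a1 (5.34, 5.62, 6.28 and 5.91) lay close to the background level throughout.

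To see how resting DC of the 2 genotypes differed, the PBS arrays were compared. In MARCO-/-, 9 of the 42 collagen genes (21.4%) exceeded WT by 2-fold or more, which 0.76% of all 17097 genes did. None was as far below WT, where 0.287% of all genes were. The median log2 ratio was 0.21 over the collagens and 0.01 over all genes. By type, 3 of 11 fibrillar, 2 of 6 basement membrane, 3 of 5 microfibril and 1 of 20 other genes were higher. Where the WT intensity lay under the background level, a fold was taken against that level and is a lower bound. Col3a1 was at least 64.7-fold higher in MARCO-/-, Col5a2 at least 4.41-fold, Col6a3 at least 4.36-fold and Col5a1 at least 2.22-fold. Col4a1 was 5.88-fold, Col4a2 3.05-fold and Col6a2 2.53-fold higher. Col6a1 (2.04-fold as measured) and Col8a1 (2.16-fold as measured) were only at least 1.63-fold and 1.57-fold higher by this bound. With all values under the background level raised to it, 7 collagens were called, and 0.643% of all genes. Of the 6 called genes with several probe sets, Col3a1 and Col4a1 passed 2-fold in all of them.

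With LPS the direction was the opposite. The arrays of this comparison are not those of the PBS one. No collagen gene exceeded WT by 2-fold in MARCO-/-, against 2.09% of all genes, and 14 of the 42 (33.3%) were at least 2-fold lower, against 1.31% of all genes. The median log2 ratio was -0.24 over the collagens and 0 over all genes. These 14 included each of the 9 genes that were higher with PBS, and also Col1a1, Col13a1, Col14a1, Col15a1 and Col18a1. Col3a1 was 79.4-fold lower in MARCO-/- LPS than in WT LPS, Col4a1 18.5-fold, Col4a2 7.36-fold and Col6a2 5.62-fold. Against the background level Col5a2 was at least 22.7-fold lower, Col6a3 at least 15.3-fold, Col5a1 at least 10.7-fold, Col1a1 at least 6.06-fold, Col8a1 at least 5.07-fold and Col6a1 at least 3.53-fold. Col14a1 was 3.04-fold and Col18a1 2.09-fold lower. Col15a1 and Col13a1 were 2.17-fold and 2.04-fold lower as measured, but only at least 1.74-fold and 1.17-fold by the bound. With values under the background level raised to it, 12 collagens were called, and 0.842% of all genes. Of the 8 called genes with several probe sets, 4 passed 2-fold in all of them, namely Col3a1, Col4a1, Col5a2 and Col18a1. The turn of direction was also counted over all genes: of 130 genes higher in MARCO-/- with PBS, 59 (45.4%) were at least 2-fold lower with LPS, and these 59 were 26.3% of the 224 genes that were lower with LPS. For collagens 9 of 9 turned, which is 64.3% of the 14.

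**Figure D2:**
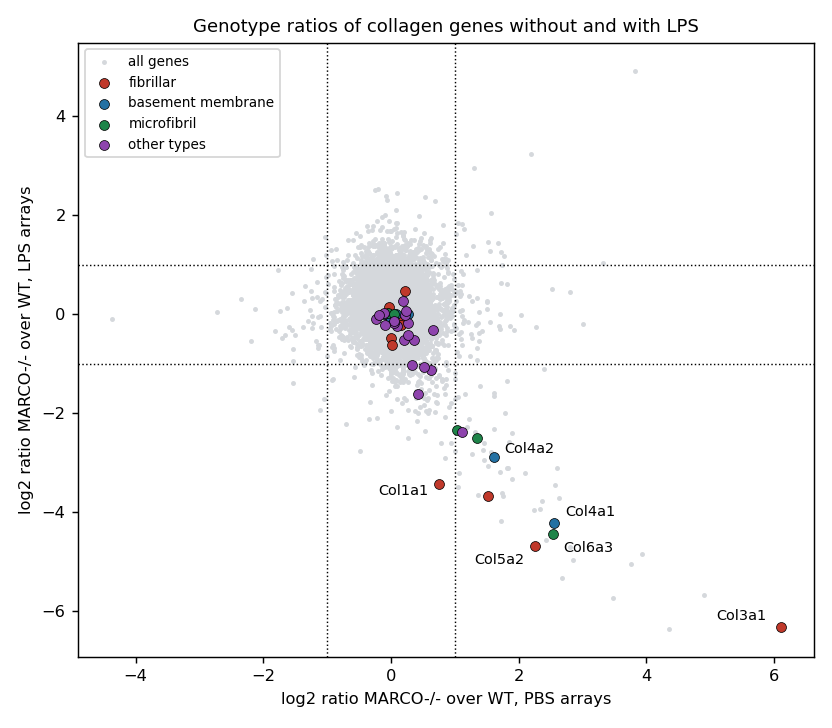
log2 ratio of MARCO-/- over WT on the PBS arrays (horizontal axis) and on the LPS arrays (vertical axis), with all genes in gray, the 42 collagens colored by type and dotted lines at 2-fold. The 9 collagens right of the 2-fold line all lie below the lower line, with Col3a1 at 6.11 and -6.31.

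The LPS response was then read within each genotype, from the same 4 arrays. In WT, 14 collagen genes were at least 2-fold higher with LPS than with PBS (33.3%, against 6.2% of all genes) and Col23a1 alone was lower (2.91-fold, where 8.31% of all genes were lower). The median log2 ratio was 0.33 over the collagens and 0.05 over all genes. Col3a1 was at least 197-fold higher, Col5a2 at least 22.7-fold, Col4a1 18.2-fold and Col6a3 at least 15.3-fold, followed by Col5a1 at least 10.7-fold, Col4a2 7.62-fold, Col6a2 6.34-fold and Col1a1 at least 6.06-fold. Col14a1 (2.03-fold) and Col18a1 (2.06-fold) passed 2-fold narrowly. With values under the background level raised to it, 12 collagens were called, and 5.58% of all genes. Of the 8 called genes with several probe sets, 5 passed 2-fold in all of them, namely Col3a1, Col4a1, Col5a2, Col6a2 and Col18a1. In MARCO-/-, no collagen was at least 2-fold higher with LPS, against 6.32% of all genes, and 11 were at least 2-fold lower (26.2%), against 5.98% of all genes. Their median log2 ratio was -0.18, and it was 0 over all genes. Col3a1 was 26.1-fold lower, Col4a1 6.00-fold, Col5a2 and Col6a3 at least 4.41-fold and 4.36-fold, Col23a1 at least 3.80-fold, Col4a2 2.94-fold and Col6a2 2.25-fold. Col14a1 stood at 2.0-fold. Of the 7 called genes with several probe sets, Col4a1 alone passed 2-fold in all of them. The second, dimmer probe set of Col3a1 did not pass 2-fold here, with a log2 ratio of -0.88 against -4.71 for the brighter one. The other probe set of Col6a2 had -0.04. By the raised values 9 collagens were called, and 5.56% of all genes, since Col1a1 and Col6a1 then missed 2-fold.

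Of the 14 genes that were higher with LPS in WT, 10 were lower with LPS in MARCO-/-. These were Col1a1, Col3a1, Col4a1, Col4a2, Col5a1, Col5a2, Col6a1, Col6a2, Col6a3 and Col14a1, that is 71.4% of the WT list and 90.9% of the MARCO-/- list. Over all genes, 58 moved in this manner, which is 5.47% of the 1060 genes higher in WT and 5.67% of the 1023 genes lower in MARCO-/-. Col23a1 was lower with LPS in both genotypes.

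**Figure D3:**
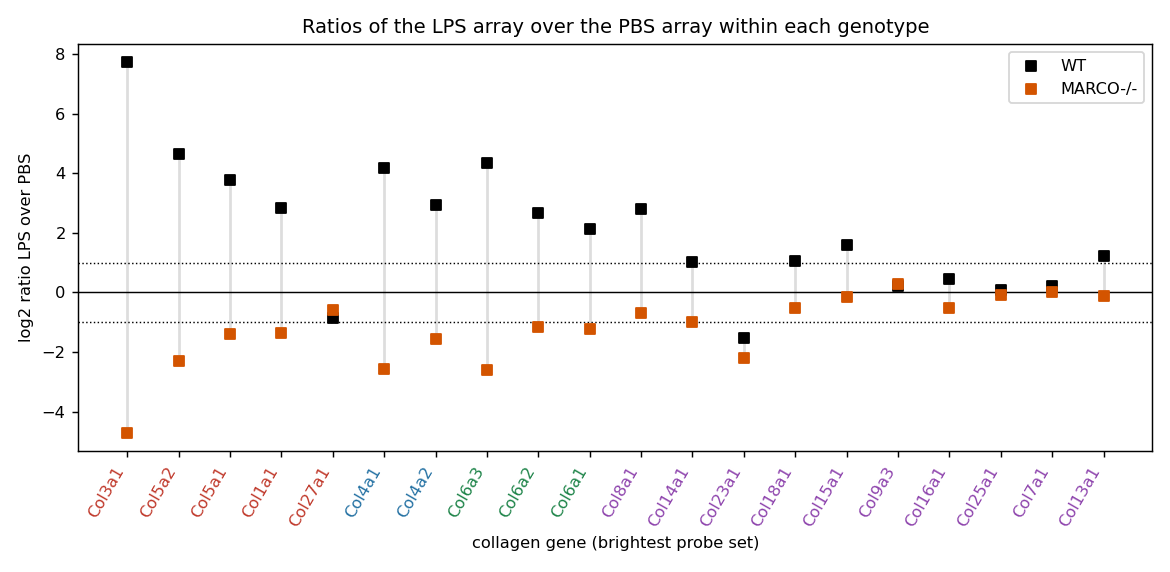
log2 ratio of the LPS array over the PBS array (vertical axis) in WT and in MARCO-/- for the 20 collagen genes with a value above the background level, with dotted lines at 2-fold. For 10 genes the WT point is above the upper line and the MARCO-/- point is below the lower one, while both points of Col23a1 are below it.

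Genes that serve collagen assembly were followed as well. For the counts in these lists and in the marker lists below, the shares of all genes are these. Between the genotypes, 0.76% were at least 2-fold higher in MARCO-/- with PBS, and 1.31% were lower in MARCO-/- with LPS. Between treatments, 6.2% were higher with LPS in WT and 5.98% were lower with LPS in MARCO-/-. Of 17 genes of chain modification and folding, Serpinh1 was the only one at least 2-fold higher in MARCO-/- with PBS and the only one lower with LPS. Serpinh1 encodes HSP47, the chaperone of procollagen in the endoplasmic reticulum. It had intensities of 7.55 in WT PBS, 73.4 in WT LPS, 25.3 in MARCO-/- PBS and 5.98 in MARCO-/- LPS, with its other probe set past 2-fold in each comparison as well. Plod3, a lysyl hydroxylase, was lower with LPS in MARCO-/- (27.9 to 11.8) and had 18.9 and 16 in WT. The general folding enzyme P4hb did not follow the collagens, with 335, 256, 334 and 238. P3h2, a prolyl hydroxylase of basement membrane collagen, had 35.0, 5.87, 32.1 and 4.77, lower with LPS in both genotypes, and P3h1 was higher in MARCO-/- LPS (10.3) than in WT LPS (4.39).

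Of 5 genes of the lysyl oxidase family, which cross-link collagen, 1 was at least 2-fold higher in MARCO-/- with PBS and 3 were lower with LPS. Loxl1 had intensities of 3.05 in WT PBS, 31.4 in WT LPS, 6.35 in MARCO-/- PBS and 3.42 in MARCO-/- LPS. Loxl2 had 2.90, 16.6, 5.0 and 2.73, and Lox had 5.29, 14.9, 6.89 and 6.63. All 3 were highest in WT LPS. Loxl3 was higher with LPS in WT (17.0 to 43.3) and went from 22.5 to 36.8 in MARCO-/-, short of 2-fold. Among 6 genes of propeptide processing, Pcolce2, an enhancer of procollagen cleavage, was higher in MARCO-/- with PBS (37.1 against 14.3 in WT). Pcolce2 was lower with LPS than with PBS in both genotypes (14.3 to 3.86 in WT and 37.1 to 2.94 in MARCO-/-). On the LPS arrays Pcolce was lower in MARCO-/- than in WT (4.74 against 12.2), and in WT it was higher with LPS than with PBS. Of 8 proteoglycans that bind fibrils, 2 were higher in MARCO-/- on the PBS arrays. The same 2 were lower in MARCO-/- on the LPS arrays. They were Bgn, which encodes biglycan, with 5.17, 112, 36.2 and 4.33, and Dcn, which encodes decorin, with 4.48, 67.0, 14.8 and 3.71. Of 6 collagen-degrading enzymes, the gelatinase gene Mmp2 was higher with PBS (12.5 against 4.12) and lower with LPS (4.69 against 14.2), and the collagenase gene Mmp13 was also lower with LPS (4.11 against 8.57). Between treatments, Mmp14 was higher with LPS in both genotypes (22.5 to 74.9 in WT and 34 to 101.9 in MARCO-/-), Mmp9 was lower in both (17.7 to 3.99 and 16.2 to 6.45), and Ctsk was higher in WT alone (8.31 to 20.4). None of 9 collagen receptor genes differed by 2-fold between the genotypes in either condition, as was so for most genes of the arrays. Lair1, an inhibitory collagen receptor of leukocytes, was lower with LPS in both genotypes, with 74.7 in WT PBS, 6.21 in WT LPS, 87.6 in MARCO-/- PBS and 5.85 in MARCO-/- LPS. Mrc2, a receptor for collagen uptake, was higher with LPS in WT (3.41 to 11.4) and had 5.19 and 7.33 in MARCO-/-.

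Markers of other cell types were summed beside the collagens. The 42 collagen genes had summed intensities of 195 in WT PBS, 1634 in WT LPS, 633 in MARCO-/- PBS and 187 in MARCO-/- LPS, and without Col3a1 of 190.3, 675, 318 and 175. The 14 fibroblast markers summed to 81.5, 259.5, 127 and 81.0 on these arrays. Of these, 5 exceeded WT by 2-fold in MARCO-/- PBS, against 0.76% of all genes. In MARCO-/- LPS, 7 fell short of WT by as much, against 1.31% of all genes. The 5 were Dcn, Dpt, Pdpn, Cxcl12 and Mfap5, and the 7 were these with Thy1 and Cd34. Between treatments, 9 of the 14 were higher with LPS in WT (6.2% of all genes) and 5 were lower with LPS in MARCO-/- (5.98%). The receptor genes that define fibroblasts passed 2-fold in no comparison. Of these, Pdgfra stayed between 2.2 and 2.29, and Pdgfrb had 3.56, 6.80, 4.61 and 4.41. For 12 skeletal muscle markers the sums were 67.8, 604, 245 and 55.0. In MARCO-/-, 9 were at least 2-fold above WT on the PBS arrays and 12 were below it on the LPS arrays. Acta1, the actin of skeletal muscle, had 4.65, 159, 62.7 and 4.8. The 8 smooth muscle and pericyte markers summed to 34.9, 294, 103 and 39.6. Acta2 (8.42, 162, 52.0 and 12.3) and Rgs5 (3.08, 92.8, 22.2 and 2.98) made up most of the WT LPS sum. Both were at least 2-fold higher in MARCO-/- with PBS and lower in MARCO-/- on the LPS arrays. The other probe set of Acta2 passed 2-fold in no comparison. Myh11 (2.64, 3.75, 2.44 and 2.59), Cnn1 and Actg2 stayed under the background level on every array. The sums of the 12 endothelial markers were 145 in WT PBS, 140 in WT LPS, 199 in MARCO-/- PBS and 134 in MARCO-/- LPS and did not have this order, but single members differed. Pecam1 (33.4, 8.88, 28.7 and 11.8) and Vwf (23.0, 3.96, 16.8 and 4.88) were lower with LPS in both genotypes. Cldn5 and Esam were at least 2-fold higher in MARCO-/- with PBS. Egfl7 (6.34, 16.4, 10.1 and 5.39) had the order of the collagens at the top, and Plvap had 14.8, 23.8, 29.5 and 7.23, both at least 2-fold lower in MARCO-/- with LPS. The 4 adipocyte markers summed to 60.2, 153, 132 and 81.9. Most of the WT LPS sum was Fabp4 (14.4, 105, 76.1 and 48.8). It was at least 2-fold higher in MARCO-/- with PBS and lower in MARCO-/- on the LPS arrays. The defining adipocyte gene Adipoq stayed under the background level, with 4.22, 3.08, 2.84 and 3.06, and was highest in WT PBS. All 6 mesothelium markers stayed under the background level on every array. The DC markers summed to 12104, 5366, 12652 and 4735, with none past 2-fold between the genotypes, as was so for most genes of the arrays. Dcn and Lum stand in both the fibroblast and the proteoglycan list. The part of other cells in the collagen values was not tested, and with 1 array per condition it cannot be told apart from genotype or treatment.

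**Figure D4:**
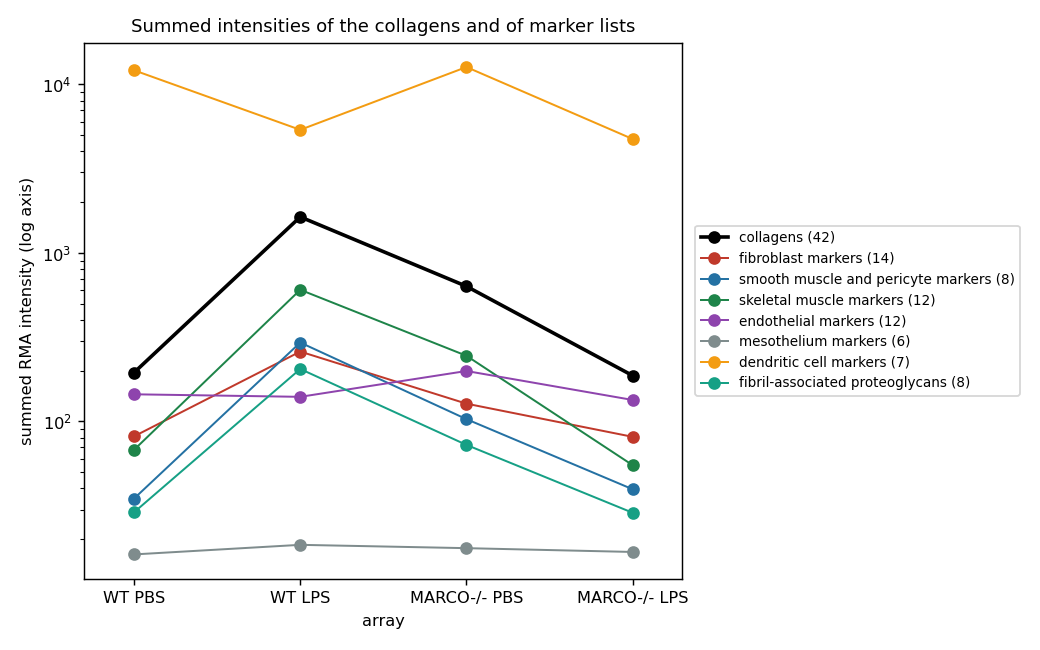
Summed RMA intensity (vertical log axis) of the 42 collagens and of marker lists on the 4 arrays, with the number of genes in parentheses. Collagens, fibroblast, smooth muscle and skeletal muscle markers and proteoglycans peak in WT LPS and are second in MARCO-/- PBS, whereas the DC markers are higher on both PBS arrays.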

How the data were processed

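RNA of pooled CD11c-selected spleen DC was hybridized to 4 Affymetrix mouse arrays, 1 per condition. The intensities were background-corrected, normalized and summarized per probe set by the authors with RMAexpress, whose version could not be read from the sources used here, and deposited on a linear scale. Probe sets were named from the GEO platform annotation: of 45037 (104 controls left out), 28898 had exactly 1 symbol, 551 several and 15588 none listed. Intensities were converted to log2 with no offset, and log2 ratios were taken between arrays. With 1 array per group no test was possible, and the number of arrays limits the precision.

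The background level was set at the median of all intensities, 4.87, since only 44 olfactory receptor probe sets were named and at least 100 had been asked for; their 95th percentile was 4.41. A fold against a lower value was taken against this level and written as "at least". Every collagen gene with a value above it was named with all 4 values. In the lists of assembly, cross-linking, receptor and degradation genes, members past 2-fold were named, up to 6 per list. Of marker lists, counts, sums and first-listed markers were given. P4hb and the other markers named were chosen after their values were seen. The members and lists were chosen with earlier results of these data known.

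Each count was repeated under 8 other settings and 2 added after the data were seen. Steps were tested on simulated data. Quantile and cyclic loess normalization were done with limma 3.58.1 (R 4.3.3), and all other steps with pandas 2.3.3 and numpy 2.4.6 (Python 3.11.15), with plots by matplotlib 3.10.9. Promoter windows are from RefSeq, GRCm38.p6. The RT-PCR measurements of the study were not used here.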

Additional observations from a re-analysis of the deposited data

Results flagged for a closer look

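For 10 collagen genes, each read from its brightest probe set, the LPS response went in opposite directions in WT and in MARCO-/- DC, past 2-fold in each. The other probe sets of Col3a1, Col5a1, Col5a2, Col6a2 and Col14a1 did not pass 2-fold in MARCO-/-. In WT, the other probe sets of Col14a1 (log2 ratios of 0.65 and 0.37) and the dimmest of Col5a1 (0.27) did not pass either. With values under the background level raised to it, Col1a1 and Col6a1 missed 2-fold in MARCO-/-. The difference between the genotypes was not tested, since each response is the ratio of 1 array to 1 other. As the log2 response in WT minus that in MARCO-/-, it was 12.4 for Col3a1, 6.97 for Col6a3, 6.93 for Col5a2, 6.77 for Col4a1, 5.18 for Col5a1, 4.49 for Col4a2, 4.18 for Col1a1, 3.83 for Col6a2, 3.36 for Col6a1 and 2.03 for Col14a1. These sizes use the values as measured, of which several lie under the background level. For Col6a3, for example, these are 3.67 in WT PBS and 3.45 in MARCO-/- LPS.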

How the results depend on the processing

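Of 116 counts and medians under the other settings, 101 stayed within a factor of 1.5 of the reported ones. A median was compared as a fold and not as a log2 value. The reported medians (log2 ratios of 0.21, -0.24, 0.33 and -0.18) are all smaller in size than this factor. A median could thus turn its sign and still count as unchanged, so the 101 says little of the medians. No count or median moved by more with quantile normalization, cyclic loess or centring on the medians. The same held without probe sets ending in x_at, s_at or a_at, where 37 genes were left. Single ratios of Col3a1 did move by more in that last setting, as given below. The median log2 ratio of MARCO-/- over WT with LPS was -0.14 with quantile normalization and -0.15 with cyclic loess, in place of -0.24. Of 676 ratios of single collagens, 62 moved by more than 1.5-fold, and none past 2-fold turned its direction. Of these 62, 32 were with the median of all intensities added before log2, 20 with a gene's probe sets averaged, 6 with values raised to the background level and 4, all of Col3a1, without its brighter probe set, which ends in a_at. Col3a1 for LPS in WT had a log2 ratio of 7.71 as reported, 6.67 with the offset, 5.30 averaged and 2.90 from its dimmer probe set alone, and MARCO-/- over WT with PBS was 6.11, 5.08, 3.67 and 1.23. Collagens higher in MARCO-/- with PBS were 5 in place of 9 with the offset and also 5 at a 3-fold threshold. Collagens lower with LPS in MARCO-/- were 6 with that offset and 5 at 3-fold, in place of 11. The 1 collagen lower with LPS in WT, Col23a1, became 0 with the offset, at 3-fold, with probe sets averaged, and among genes whose highest value was at least 4 times the median. Among the 20 genes with their highest value above the background level, the median log2 ratio was -1.97 for MARCO-/- over WT with LPS, 1.87 for LPS in WT and -1.09 for LPS in MARCO-/-. Among the 11 at 4 times the median or more, it was 1.51 for MARCO-/- over WT with PBS, -3.43 with LPS, 2.93 for LPS in WT and -1.40 for LPS in MARCO-/-. These filters keep genes that are high on some array, so their medians had to be larger. No paired analysis was possible because each group has 1 array.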
